A study of Mus musculus with 26 samples.

Results

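A group of 10 genes of chromosome 14 that lie on either side of Fgf9 was followed through mouse XY gonads at E13.5, a stage of embryonic development, of 4 genotypes labelled as Fgf9 deletions. The genes are Xpo4, Lats2, Sap18, Ska3, Mrpl57, Zdhhc20 and Micu2 before the Fgf9 start, in that order, and Spata13, Mipep and Tnfrsf19 after it. They were chosen by name and position, with earlier results of these data known. They are not all the genes nearby, since 82 others within 3 Mb of the Fgf9 start were tested. All 10 were found by identifier and symbol among the 57186 genes of the table of all deletions and passed the filter on low counts in both fits. The question was whether the deletions were accompanied by changes in genes other than Fgf9 nearby, with Tnfrsf19 followed separately as a gene that may change secondarily.

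The samples were gonads dissected away from the mesonephros and frozen, and their polyadenylated RNA was sequenced with a strand-specific kit. There were 26 samples in 6 groups: wild type (WT, n = 3), the Fgf9 genotypes Δ306 (n = 3), Δ225 (n = 6), Δ104 (n = 4) and Δ93 (n = 6), and a knockout of the homeobox gene Meis1 (Meis1 KO, n = 4). The labels state neither the ends of the deletions nor their zygosity, strain or litters, and only those of the Δ225, Δ104, Δ93 and Meis1 KO samples call the replicates biological, so p-values measure the spread between these samples. WT and Δ306 carry 1 set of processing notes and the other 4 groups another, so that for Δ225, Δ104, Δ93 and Meis1 KO a difference from WT cannot be told apart from that difference in processing. The same limit holds for every difference of Δ225, Δ104 or Δ93 from Δ306. All comparisons with WT share the same 3 WT libraries.

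FGF9 is a secreted growth factor that supports Sertoli cell fate in the fetal testis, where it acts against WNT signalling, and XY gonads that lack it form ovarian supporting cells. The neighbours have no common pathway. MICU2 gates the mitochondrial calcium uniporter, MRPL57 is a protein of the mitochondrial ribosome and MIPEP trims imported mitochondrial proteins. SKA3 holds spindle microtubules at kinetochores, SAP18 is part of the SIN3 co-repressor and of a splicing-associated complex, and XPO4 carries proteins across the nuclear envelope. LATS2 is a kinase of the Hippo pathway, SPATA13 activates small GTPases, ZDHHC20 attaches palmitate to membrane proteins, and TNFRSF19 (TROY) is a receptor of the TNF receptor family whose gene is a known target of WNT and β-catenin signalling.

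Micu2 is the nearest member, with its start site 71.3 kb before the Fgf9 start (chr14:57916261-57999262, minus strand, GRCm38, GENCODE M21 annotation). Zdhhc20 (chr14:57832703-57890276, minus) starts 180.3 kb, Mrpl57 (chr14:57826234-57829296, plus) 244.3 kb, Ska3 (chr14:57806561-57826185, minus) 244.4 kb and Sap18 (chr14:57798180-57806638, plus) 272.4 kb before it. Lats2 (chr14:57689662-57758388, minus) and Xpo4 (chr14:57577521-57665430, minus) follow at 312.2 and 405.1 kb. On the other side the members are much farther away, Spata13 (chr14:60634001-60764556, plus) at 2.56 Mb, Mipep (chr14:60784573-60905478, plus) at 2.71 Mb and Tnfrsf19 (chr14:60963875-61046490, minus) at 2.98 Mb. Ska3 and Sap18 overlap by 78 bases at their ends, and the strand setting of the counting is not given in the sources used here, so reads in those bases cannot be assigned to either gene with certainty. Tnfrsf19 overlaps the lincRNA Gm41168 on the other strand over 8531 bases. Lats2 and Xpo4 overlap the gene model Gm49361 on their own strand, which is listed at 0 counts in all libraries, and Sap18 has a related copy, Sap18b, on chromosome 8.

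The promoter windows on which the results below turn are shown here, each from 250 bases before to 50 bases after an annotated start, 5′ to 3′ on the strand of the gene, from RefSeq (GRCm38.p6). Windows were given for 9 of the 10 members, 12 windows in all, and not for Xpo4. Capitals mark matches on either strand to a TCF/LEF motif (CTTTGAT or ATCAAAG), a SOX motif (ACAAAG or CTTTGT) or a CTCF core (CCCTC or GAGGG). The first 2 windows are the annotated promoters of Tnfrsf19, the one member that rose in any deletion. The third is the Micu2 promoter, which also holds the start of the divergent long non-coding RNA 3110083C13Rik.
Tnfrsf19, upstream window, chr14:61046806-61047105, minus strand: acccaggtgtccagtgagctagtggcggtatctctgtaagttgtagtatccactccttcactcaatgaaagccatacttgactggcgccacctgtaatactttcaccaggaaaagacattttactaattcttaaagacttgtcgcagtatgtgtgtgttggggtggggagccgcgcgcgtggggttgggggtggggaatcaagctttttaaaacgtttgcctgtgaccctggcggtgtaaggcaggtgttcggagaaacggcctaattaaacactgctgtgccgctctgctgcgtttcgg
Tnfrsf19, downstream window, chr14:61037938-61038237, minus strand: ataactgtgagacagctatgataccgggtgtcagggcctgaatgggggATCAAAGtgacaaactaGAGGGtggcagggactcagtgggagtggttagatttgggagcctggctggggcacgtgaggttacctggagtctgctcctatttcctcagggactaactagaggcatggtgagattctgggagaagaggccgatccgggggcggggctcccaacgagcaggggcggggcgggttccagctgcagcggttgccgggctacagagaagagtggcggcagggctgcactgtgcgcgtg
Micu2, chr14:57999213-57999512, minus strand: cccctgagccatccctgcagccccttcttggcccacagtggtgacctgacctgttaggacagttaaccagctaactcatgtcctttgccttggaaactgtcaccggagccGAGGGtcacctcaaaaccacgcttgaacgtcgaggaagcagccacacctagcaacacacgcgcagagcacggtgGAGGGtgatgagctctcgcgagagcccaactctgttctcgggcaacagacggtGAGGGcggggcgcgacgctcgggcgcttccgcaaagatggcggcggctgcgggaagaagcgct
The downstream Tnfrsf19 window has 1 TCF/LEF match, and Gm41168 starts inside it on the other strand. Of all 32851 promoter windows of the same length, 3.73% hold this motif, and of the 12 member windows it is the 1 that does. The SOX motif is in 0 of the 12 (18.7% of all windows) and the CTCF core in 9 of the 12 (66.0%). A match describes letters only, not a site that is bound.

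Total counts were 11.6 to 53.4 M per library (median 36.8) in the table of all deletions and 35.5 to 51.7 M in the Meis1 table. The markers of germ cells (4 genes) summed to 10.8 CPM (counts scaled to the total of the library) in WT replicate 1, against 352 and 517 CPM in the other WT libraries and 112 to 894 CPM in the deletion libraries, and 8 of the 10 members were lowest among the WT libraries in that one. Its part in the results was not tested by other means, but each comparison with WT was repeated without it. Fgf9 itself was at 9.85, 9.21 and 9.55 CPM in WT, 2.94, 2.17 and 2.33 CPM in Δ306 and 2.30 to 4.75 CPM (median 2.85) in Δ93, and fell in both (log2 fold change -1.94, SE 0.45, adjusted p = 0.0148, and -1.63, SE 0.36, adjusted p = 0.00532, edgeR quasi-likelihood F-test). In Δ104 Fgf9 was at 2.72, 5.16, 6.98 and 4.52 CPM, below every WT library but not called (log2 -0.98, 95% interval -1.81 to -0.15, adjusted p = 0.259). In Δ225 it was at 3.69 to 6.36 CPM in 5 of the 6 libraries and at 16.5 CPM in replicate 3 (log2 -0.45, 95% interval -1.21 to 0.32, adjusted p = 0.535). Sertoli markers (8 genes: Sox9, Amh, Dhh, Cst9, Aard, Ptgds, Sox8 and Sox10) summed to 1980 to 2430 CPM in WT, 73.8 to 528 CPM in Δ306 and 43.6 to 877 CPM in Δ93. Pre-granulosa markers (7 genes: Foxl2, Fst, Wnt4, Rspo1, Bmp2, Irx3 and Irx5) summed to 65.1 to 112 CPM in WT, 387 to 756 CPM in Δ306 and 439 to 1110 CPM in Δ93. None of the markers of either list was at 0 in a whole group.

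Tnfrsf19 was the only 1 of the 10 neighbours called in a deletion against WT, where called means an adjusted p under 0.05 over all 22941 genes tested. It rose in Δ306 and Δ93 by 7.46-fold (95% interval 3.00 to 18.6) and 10.4-fold (4.32 to 25.3). The members called were 1 of 10 in Δ306 (6.43% of all genes), 1 of 10 in Δ93 (14.1%), 0 of 10 in Δ104 (0.061%) and 0 of 10 in Δ225 (0.209%). In Δ93 the share of members called lay below that of all genes, and in Δ306 it rested on 1 gene. In both, the member called was Tnfrsf19, so these shares do not describe genes drawn by position alone. Over the 10 members the median log2 fold change was 0.06 in Δ306, 0.00 in Δ93, -0.06 in Δ104 and 0.02 in Δ225, beside 0.08, 0.06, 0.06 and 0.04 over all genes.

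**Figure D1:**
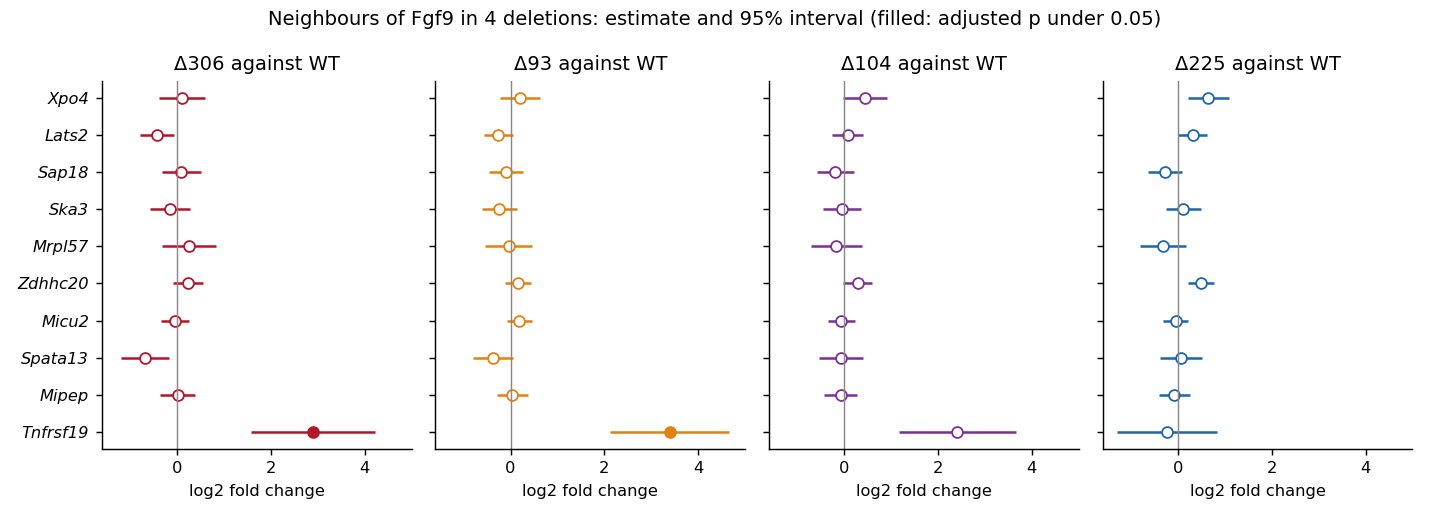
Log2 fold changes of the 10 neighbours (rows, in the order of their starts along chromosome 14) in each deletion against WT, with 95% intervals, and filled points for adjusted p under 0.05. Tnfrsf19 stands at 2.90 in Δ306 and 3.39 in Δ93, while the other 9 estimates lie between -0.68 and 0.65 in all 4 deletions.

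The WT libraries held Tnfrsf19 at 28.5, 21.3 and 24.1 CPM. In the Δ306 libraries it was at 138, 162 and 252 CPM, all above every WT library (log2 fold change 2.90, SE 0.63, adjusted p = 0.0118). In Δ93 it ran from 164 to 370 CPM with a median of 251, again above every WT library (log2 3.39, SE 0.61, adjusted p = 0.00163). Libraries that do not overlap were found for 37.6% of all genes in Δ306 and 24.7% in Δ93. Δ93 kept its call in all 15 alternatives. In Δ306 the call was lost without Δ306 replicate 3 (log2 2.56, adjusted p = 0.0681), WT replicate 2 (2.76, 0.0614) or WT replicate 3 (2.85, 0.0521), and it held without WT replicate 1 (2.99, 0.0474).

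The 4 Δ104 libraries were at 311, 142, 53.0 and 18.9 CPM of Tnfrsf19, so that they spanned nearly the whole range of the study. Replicate 1 was as high as the Δ93 libraries and replicate 4 was below all WT libraries. Their mean of 131 ± 131 CPM (SD, n = 4) was not called against WT by edgeR (log2 2.41, 95% interval 1.17 to 3.66, adjusted p = 0.0905). It was called by DESeq2 (log2 2.43, adjusted p = 0.00263), and by edgeR without Δ104 replicate 4 (2.78, 0.00373). Without Δ104 replicate 1 the log2 fold change was 1.54 (adjusted p = 0.357). At an unadjusted p under 0.05, edgeR marked 1 of the 10 members in Δ104 (15.7% of all genes), and DESeq2 called 2.59% of all genes there.

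In Δ225 Tnfrsf19 was at 12.3 to 31.2 CPM with a median of 19.3, which overlaps WT. Its log2 fold change against WT was -0.23 (95% interval -1.29 to 0.83, adjusted p = 0.836), so that a change of up to 1.78-fold upward or to 0.409 of the WT level lies within the interval. In the Meis1 KO libraries, counted in their own table, it was at 21.8, 22.2, 23.4 and 23.7 CPM, against 30.6, 22.8 and 25.5 CPM in the WT libraries of that table. Those values overlap, and the log2 fold change was -0.21 (95% interval -0.46 to 0.04, adjusted p = 0.344). Fgf9 was at 11.2 to 12.3 CPM in Meis1 KO and 9.80 to 10.6 CPM in its WT (log2 0.22, adjusted p = 0.256), while Meis1 was at 0.201 to 0.695 CPM in the knockout and 62.1 to 109 CPM in WT.

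By mean level the order of Tnfrsf19 was Δ93 (257 ± 83.5 CPM), Δ306 (184 ± 60.0), Δ104 (131 ± 131), WT (24.6 ± 3.62) and Δ225 (20.9 ± 7.0, all SD). Groups next to each other in this order were not called apart: Δ93 minus Δ306 was 0.49 on the log2 scale (95% interval -0.60 to 1.57, adjusted p = 0.838) and Δ104 minus Δ306 was -0.49 (-1.62 to 0.65, 0.799). Between deletions, Δ225 was lower than Δ93 by a log2 difference of -3.62 (SE 0.46, adjusted p = 4.08e-05) and lower than Δ306 by one of -3.13 (SE 0.50, adjusted p = 0.000668). Both calls held in all alternatives, 18 and 15 of them. Δ225 was also lower than Δ104 (-2.65, SE 0.47, adjusted p = 0.0101). That call was lost with the replicate number as a block (-2.42, adjusted p = 0.218), in a fit of the 2 groups alone (-2.62, 0.414) and without Δ104 replicate 1 (-1.76, 0.157). Δ93 minus Δ104 was 0.97 (95% interval -0.03 to 1.97, adjusted p = 0.355) and was called without Δ104 replicate 1 (1.88, 0.027).

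**Figure D2:**
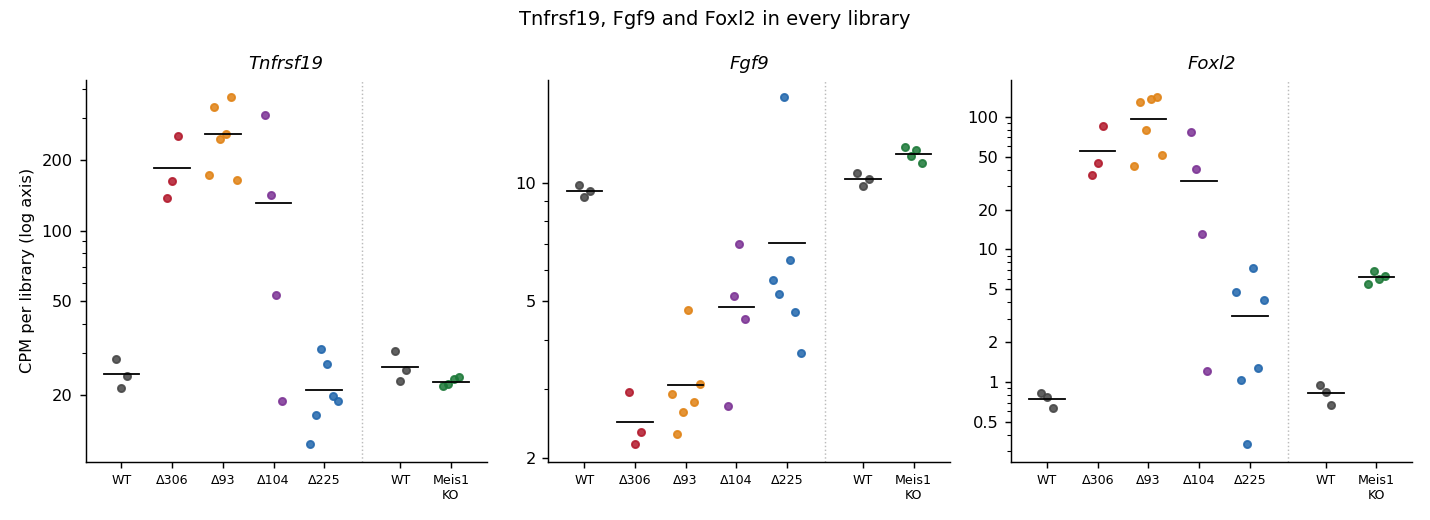
Tnfrsf19, Fgf9 and Foxl2 in CPM (log axis) in every library, with a line at the mean of each group. The 2 groups right of the dotted line come from the Meis1 table. Tnfrsf19 lies at 138 CPM or more in all Δ306 and Δ93 libraries and at 31.2 CPM or less in all WT and Δ225 libraries, and the Δ104 libraries lie from 18.9 to 311 CPM.

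Tnfrsf19 was set beside a supporting-cell marker, library by library. Their orders matched in Δ104 and Δ306, differed in part in Δ93 and differed in Δ225. Foxl2, a transcription factor of the pre-granulosa lineage, was at 77.0, 40.5, 13 and 1.22 CPM in Δ104 replicates 1, 2, 3 and 4, the same order as Tnfrsf19. In Δ306 Foxl2 was at 36.5, 45.0 and 85.7 CPM, also in the order of Tnfrsf19. In Δ93 Foxl2 was at 42.5, 130, 79.9, 137, 141 and 52.0 CPM in replicates 1 to 6, lowest in replicate 1. Tnfrsf19 was at 172, 335, 245, 257, 370 and 164 CPM there, lowest in replicate 6, and both genes were highest in replicate 5. In Δ225 Foxl2 was at 4.78, 1.04, 0.339, 7.19, 1.27 and 4.13 CPM, and replicate 3, with the least Foxl2, had the most Tnfrsf19 (31.2 CPM). In Meis1 KO Foxl2 was at 5.46 to 6.86 CPM, against 0.672 to 0.946 CPM in WT, while Tnfrsf19 was not called there. A supporting-cell balance was taken per library, Sertoli markers minus pre-granulosa markers in mean log2 CPM. It was 4.54 to 4.97 in WT, 3.6 to 4.77 in Δ225, -4.40 to -0.36 in Δ306, -6.02 to 0.29 in Δ93 and -5.95 to 5.16 in Δ104.

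Over the 6 Δ93 libraries, Tnfrsf19 and this balance had a Pearson r of -0.88 and a Spearman rho of -0.94 (two-sided exact permutation p = 0.0181 and 0.0167). Adjusted over the 4 relations computed, the p of r was 0.0722, which misses the threshold, and r was -0.75 without the 2 libraries farthest from the median. Over the 6 Δ225 libraries r was -0.08 and rho -0.03 (exact permutation p = 0.892 and 1.0), with r 0.77 without the 2 farthest. With Fgf9, Tnfrsf19 had r 0.64 and rho 0.49 in Δ225 (exact permutation p = 0.174 and 0.356; adjusted p of r 0.347), r 0.30 without the 2 farthest, and r -0.23 and rho -0.43 in Δ93 (exact permutation p = 0.721 and 0.419; adjusted 0.892), r -0.65 without them. In whole gonads, more cells that hold a transcript and more transcript per cell cannot be told apart. Whether the share of pre-granulosa cells accounts for the level of Tnfrsf19 was not tested.

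**Figure D3:**
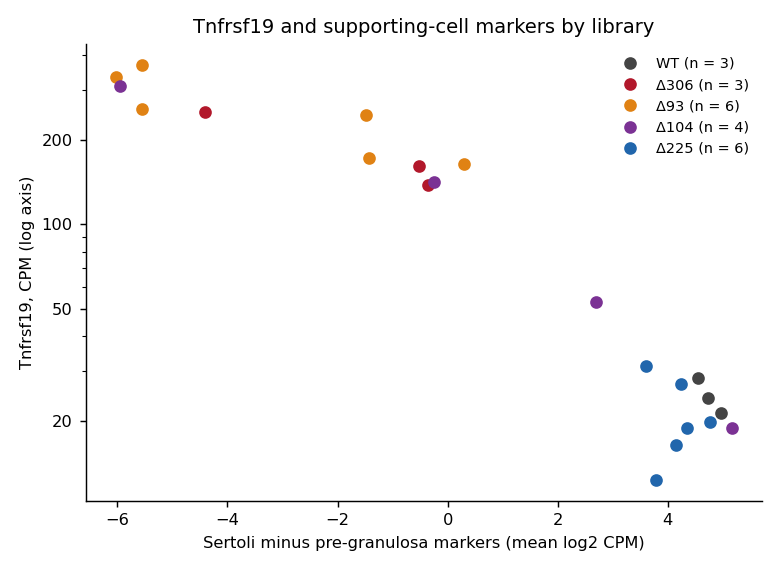
Tnfrsf19 in CPM (log axis) against the supporting-cell balance (mean log2 CPM of Sertoli minus pre-granulosa markers), 1 point per library. WT and Δ225 libraries sit at balances from 3.6 to 4.97 with 12.3 to 31.2 CPM, and Δ306 and Δ93 libraries at 0.29 or less with 138 to 370 CPM.

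The genes most like Tnfrsf19 over the 22 libraries of the table of all deletions, by Pearson r of log2 CPM among 11701 genes, were Chrm4 (r 0.994), Irx3 (0.990), Lypd6, Klhdc7a and Anpep (0.987 each). Irx3 is 1 of the 7 pre-granulosa markers. Chrm4, a muscarinic receptor gene, averaged 0.537 CPM in WT, 37.3 in Δ306, 49.9 in Δ93, 24.6 in Δ104 and 0.434 in Δ225. The lowest r belonged to Stc1 (-0.960), which encodes the secreted hormone stanniocalcin, Arhgap6 (-0.959) and Enc1 (-0.957). These values describe 22 libraries that share the differences between the groups. Of the other members, Lats2 had the largest r in size (-0.85), followed by Ska3 (-0.59), Spata13 (-0.58), Zdhhc20 (-0.44) and Xpo4 (-0.33), and Micu2, Mipep, Mrpl57 and Sap18 had 0.14 to 0.29.

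Of 9 other canonical WNT target genes, 6 rose in Δ93 (14.1% of all genes were called there in either direction) and 2 in Δ306 (6.43%), with median log2 fold changes of 1.12 and 0.96, and 0 were called in Δ104 (median 0.95) or Δ225 (0.09). Markers of several cell types moved in the same comparisons. Of 7 pre-granulosa markers 7 were called higher in Δ93 and 6 in Δ306, and of 4 coelomic epithelium markers 3 and 1. Of 5 fetal Leydig markers 4 and 3 were called lower, and of 8 Sertoli markers 2 and 0. All 8 Sertoli estimates lay below WT, at -3.98 to -1.38 on the log2 scale in Δ93 and -3.81 to -1.0 in Δ306. The part of these cell types in the counts of WNT target genes was not tested. Sp5, a transcription factor gene, rose from 4.36 ± 1.25 CPM in WT to 48.1 ± 10.7 in Δ93 (log2 3.46, adjusted p = 0.000752) and 41.4 ± 5.32 in Δ306 (3.25, 0.0043). Rnf43, which encodes a ubiquitin ligase that removes WNT receptors, rose by log2 2.54 in Δ93 (adjusted p = 0.00428) and 2.26 in Δ306 (0.0234). Lgr5, an R-spondin receptor gene, rose by log2 1.58 in Δ93 (adjusted p = 0.0288). Of 9 genes of the TNF and Nogo receptor group around TNFRSF19, 3 rose and 2 fell in Δ93 and 1 fell in Δ306. Edar rose in Δ93 from 0.697 ± 0.317 to 3.48 ± 0.948 CPM (log2 2.33, adjusted p = 0.011) and its adaptor Edaradd by log2 1.64 (0.024). Ngfr, the p75 neurotrophin receptor gene, fell in Δ306 by 1.83 on the log2 scale (adjusted p = 0.00598), and Rtn4r, the Nogo receptor gene, fell in Δ93 by 1.60 (0.0387).

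Of the 9 other neighbours, edgeR called 0 in any deletion against WT. At an unadjusted p under 0.05 it marked 2 of the 9 in Δ306 (21.9% of all genes) and 3 in Δ225 (16.1%). DESeq2 called 1 of them in Δ225, Zdhhc20 (3.55% of all genes), and 0 in Δ306 (10.4%), Δ93 (17.9%) and Δ104 (2.59%). The lowest and highest bounds of their 95% intervals were 0.438 of the WT level, for Spata13 in Δ306, and 2.13 times it, for Xpo4 in Δ225. Without WT replicate 1 the count stayed at 0 in all 4 deletions.

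None of the 3 mitochondrial genes was called against WT with all libraries. Micu2, nearest to Fgf9, was at 77.3, 80.3 and 86.9 CPM in WT, 78.3, 78.7 and 79.9 in Δ306, and 73.8, 78.1, 71.1 and 89.7 in Δ104. It was at 70.2 to 84.8 CPM (median 81.5) in Δ225 and 64.4 to 107 CPM (median 95.5) in Δ93, and all groups overlapped WT. Its log2 fold changes against WT were -0.06 to 0.19, with all intervals between -0.35 and 0.45, that is 0.783 to 1.37 of the WT level. Without Δ93 replicate 1, the lowest library, Micu2 was called in Δ93 against WT (log2 0.31, adjusted p = 0.0451) and against Δ104 (0.36, 0.0455).

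The divergent non-coding gene 3110083C13Rik, whose start lies 61 bases from that of Micu2 in the window printed above, was at 0.653, 1.18 and 1.03 CPM in WT and 1.67, 2.59 and 2.68 in Δ306. It rose in Δ306 (log2 1.28, SE 0.34, edgeR adjusted p = 0.0285) and in Δ93 (1.05, SE 0.30, 0.0242), with no library overlapping WT (37.6% and 24.7% of all genes). It was uncalled in Δ104 (0.83, 95% interval 0.17 to 1.49, adjusted p = 0.241), also with no overlap (18.1% of all genes). In Δ225 it was uncalled too and overlapped WT (0.60, -0.02 to 1.21, 0.326). At about 1 CPM it rests on far fewer reads than Micu2.

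Mipep was at 26.2, 36.8 and 35.6 CPM in WT, and its log2 fold changes ran from -0.08 to 0.04 with intervals between -0.42 and 0.39. Of 6 other mitochondrial peptidase genes, 1 rose in Δ306 (Immp1l, log2 0.85, edgeR adjusted p = 0.0272) and 1 in Δ93 (Immp2l, 1.06, 0.0437). Of all genes, 6.43% and 14.1% were called there. Mrpl57, the member with the lowest mean in WT (23.3 CPM), was at 19.4, 24.4 and 26.1 CPM in WT and varied more between libraries, from 11.6 CPM in Δ225 to 32.5 CPM in Δ93. Its log2 fold changes were -0.32 to 0.26, and 0 of 8 other genes of the large mitochondrial ribosomal subunit were called in any deletion. With the replicate number as a block, Mrpl57 was lower in Δ225 than in Δ306 (log2 -0.79, adjusted p = 0.0219, against -0.58 and 0.108 without it).

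The nuclear and division genes were also uncalled against WT. Ska3, whose start lies 49 bases from that of Mrpl57, was at 24.8, 33.4 and 33.6 CPM in WT, 26.5, 28.6 and 27.6 in Δ306 and 18.2 to 31.9 (median 27.2) in Δ93. Its log2 fold changes were -0.24 to 0.12, and 0 of 6 partner genes of the kinetochore were called in any deletion against WT. Between deletions, 3 of the 6 were called higher in Δ225 than in Δ93 (20.8% of all genes called). Ska3 itself was uncalled there (log2 0.36, edgeR adjusted p = 0.0864). Sap18 had the widest spread among WT libraries, 106, 185 and 210 CPM, with replicate 1 the lowest. In Δ306 it was at 161, 194 and 181 CPM and in Δ225 at 125 to 151 (median 138), and its log2 fold changes were -0.28 to 0.09. Of 9 partners in the SIN3 and splicing-associated complexes, 2 fell in Δ93 (14.1% of all genes called). Sin3b fell by 0.85 on the log2 scale (edgeR adjusted p = 0.0487) and Acin1 by 0.38 (0.0157).

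Xpo4 had the largest upward estimate among the uncalled members. It was at 49.2, 71.4 and 62.8 CPM in WT and 80.0 to 119 CPM (median 91.5) in Δ225, with no overlap, as for 10.1% of all genes in that comparison. The log2 fold change was 0.65 (95% interval 0.21 to 1.09, adjusted p = 0.179), it was 0.81 with the replicate number as a block (adjusted p = 0.0343), and it was 0.51 (0.454) without WT replicate 1. With the block Xpo4 was also higher in Δ225 than in Δ93 (log2 0.47, adjusted p = 0.0332, against 0.45 and 0.0642 without it) and than in Δ306 (0.70, 0.0267, against 0.54 and 0.0944). Without Δ93 replicate 1, Δ225 and Δ93 were called apart in Xpo4 (0.54, adjusted p = 0.0229), Ska3 (0.40, 0.0475) and Micu2 (-0.34, 0.00625). In Δ104 Xpo4 was at 87.6, 92.7, 81.3 and 70.9 CPM (log2 0.44, adjusted p = 0.34), and in Δ93 it spread from 37.7 to 96.8 CPM. Of 6 other exportin genes, 0 were called in any deletion against WT, and 1 was called higher in Δ225 than in Δ306 (13.2% of all genes called).

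Zdhhc20 was at 71, 68.2 and 67.9 CPM in WT, and every Δ306 library (75.0, 90.4 and 79.2), Δ104 library (75.5, 78.2, 91.7 and 91.6) and Δ225 library (82.1 to 135, median 90.8) was higher. The Δ93 libraries, at 65.9 to 84.7 CPM, overlapped WT. Of all genes, 37.6%, 18.1% and 10.1% did not overlap WT in Δ306, Δ104 and Δ225. The largest log2 fold change was 0.50 in Δ225 (95% interval 0.21 to 0.78, adjusted p = 0.121), called by DESeq2 (0.53, 0.0251) and with the replicate number as a block (0.55, 0.0461). Zdhhc20 was higher in Δ225 than in Δ93 (log2 0.33, SE 0.11, edgeR adjusted p = 0.0351), a call that held in 7 of 18 alternatives. It was lost with the block (0.33, adjusted p = 0.0608) and in the 2 groups alone (0.36, 0.0817). The same held with no composition factor (0.28, 0.0572) and with no filter (0.32, 0.0902). It was also lost without any 1 of Δ225 replicates 2 and 3 or Δ93 replicates 2, 3, 4, 5 and 6 (adjusted p up to 0.104). Of 8 other palmitoyltransferase genes, 2 rose in Δ93 (14.1% of all genes called), Zdhhc13 (log2 0.61, edgeR adjusted p = 0.0227) and Zdhhc21 (0.56, 0.0372).

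In the Meis1 table Zdhhc20 was the 1 member called in Meis1 KO, where 1.8% of 16791 genes were called. It was at 96.3, 96.6, 92.9 and 91.1 CPM in the knockout and 76.2, 72.9 and 71.7 in WT, with no overlap (19.7% of all genes), and the log2 fold change was 0.36 (SE 0.06, adjusted p = 0.0389). The call was lost with the replicate number as a block (0.37, 0.151) and without any 1 of the 4 knockout libraries or WT replicates 2 and 3 (0.33 to 0.37, adjusted p 0.0964 to 0.136), and held without WT replicate 1 (0.38, 0.0116). Over all genes the number called fell from 303 to between 15 and 27 without those libraries and was 2204 without WT replicate 1. The other 8 members besides Tnfrsf19 had log2 fold changes of -0.02 to 0.26 in Meis1 KO.

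Lats2 gave the clearest difference between deletions after Tnfrsf19. It was at 36.0, 37.1 and 37.2 CPM in WT, and the Δ306 libraries (29.5, 29.5 and 23.1) and Δ93 libraries (25.8 to 35.9, median 31.2) were all lower, while the Δ225 libraries (42.6 to 52.4, median 45.7) were all higher. None of these was called against WT (log2 -0.43, -0.26 and 0.32, adjusted p = 0.137, 0.26 and 0.299). Of all genes, 37.6%, 24.7% and 10.1% did not overlap WT in Δ306, Δ93 and Δ225. Between deletions, Lats2 was higher in Δ225 than in Δ306 (log2 0.74, SE 0.15, 95% interval 0.43 to 1.06, adjusted p = 0.00351) and than in Δ93 (0.57, SE 0.12, 0.32 to 0.82, adjusted p = 0.00201), with no overlap (20.2% and 11% of all genes), and both calls held in all 15 and 18 alternatives. The members called were 3 of 10 in Δ225 against Δ306 (13.2% of all genes) and 3 of 10 in Δ225 against Δ93 (20.8%). Over the 10 members the medians there were 0.13 and 0.11, beside -0.02 and 0.00 over all genes. Libraries did not overlap for 7 of 10 members in Δ225 against Δ306 (20.2% of all genes) and 2 of 10 in Δ225 against Δ93 (11%). At an unadjusted p under 0.05, edgeR marked 6 and 7 of the 10, for which the share of all genes is not given here. The Δ104 libraries held Lats2 at 29.2, 38.9, 39.7 and 48.0 CPM in replicates 1 to 4, the reverse of the order of Tnfrsf19.

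Of 16 Hippo pathway partners of Lats2, 2 rose in Δ306 (6.43% of all genes called) and 2 rose and 3 fell in Δ93 (14.1%). Another count was 1 higher in Δ225 (0.209%) and in Δ104 (0.061%). Mob1b, which encodes an activator of the LATS kinases, was at 24.7 ± 1.81 CPM in WT and rose in all 4 deletions, to 38.5 ± 4.49 in Δ306 (log2 0.64, adjusted p = 0.0454), 51.2 ± 11.3 in Δ225 (1.05, 0.00994), 51.8 ± 7.94 in Δ104 (1.07, 0.0302) and 48.2 ± 4.72 in Δ93 (0.96, 0.00144). It also rose in Meis1 KO (0.67, 0.0194), and all 5 comparisons rest on the same WT libraries. Wwtr1, which encodes the co-activator TAZ, rose by log2 0.66 in Δ306 (adjusted p = 0.041). Ccn1 and Ccn2, targets of YAP and TAZ, fell in Δ93 by 1.38 and 1.2 on the log2 scale (adjusted p = 0.00428 and 0.0185).

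Spata13, on the same side of Fgf9 as Tnfrsf19, was at 39.5, 55.4 and 50.7 CPM in WT and 29.7, 29.9 and 31.3 CPM in Δ306, all below WT (37.6% of all genes did not overlap there). Its log2 fold change in Δ306 was -0.68 (95% interval -1.19 to -0.17, adjusted p = 0.101), and it was called in a fit of the 2 groups alone (-0.67, 0.0158) and in the first deposited table, which holds these libraries alone (-0.61, 0.0275). Δ93 libraries spread from 17.5 to 49.5 CPM (median 41.0), and Δ104 (48.7, 45.8, 45.6 and 44.8) and Δ225 (43.7 to 54.6) stayed within or near WT. Spata13 was higher in Δ225 than in Δ306 (log2 0.74, SE 0.22, adjusted p = 0.0286), with no overlap (20.2% of all genes). That call held in 10 of 15 alternatives. Those that lost it included leaving out any 1 Δ306 replicate (0.75 to 0.80, edgeR adjusted p 0.0815 to 0.0993). Arhgef4, which encodes another guanine nucleotide exchange factor, fell in Δ306 by 2.04 on the log2 scale (adjusted p = 0.0109) and in Δ93 by 1.52 (0.00704).

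**Figure D4:**
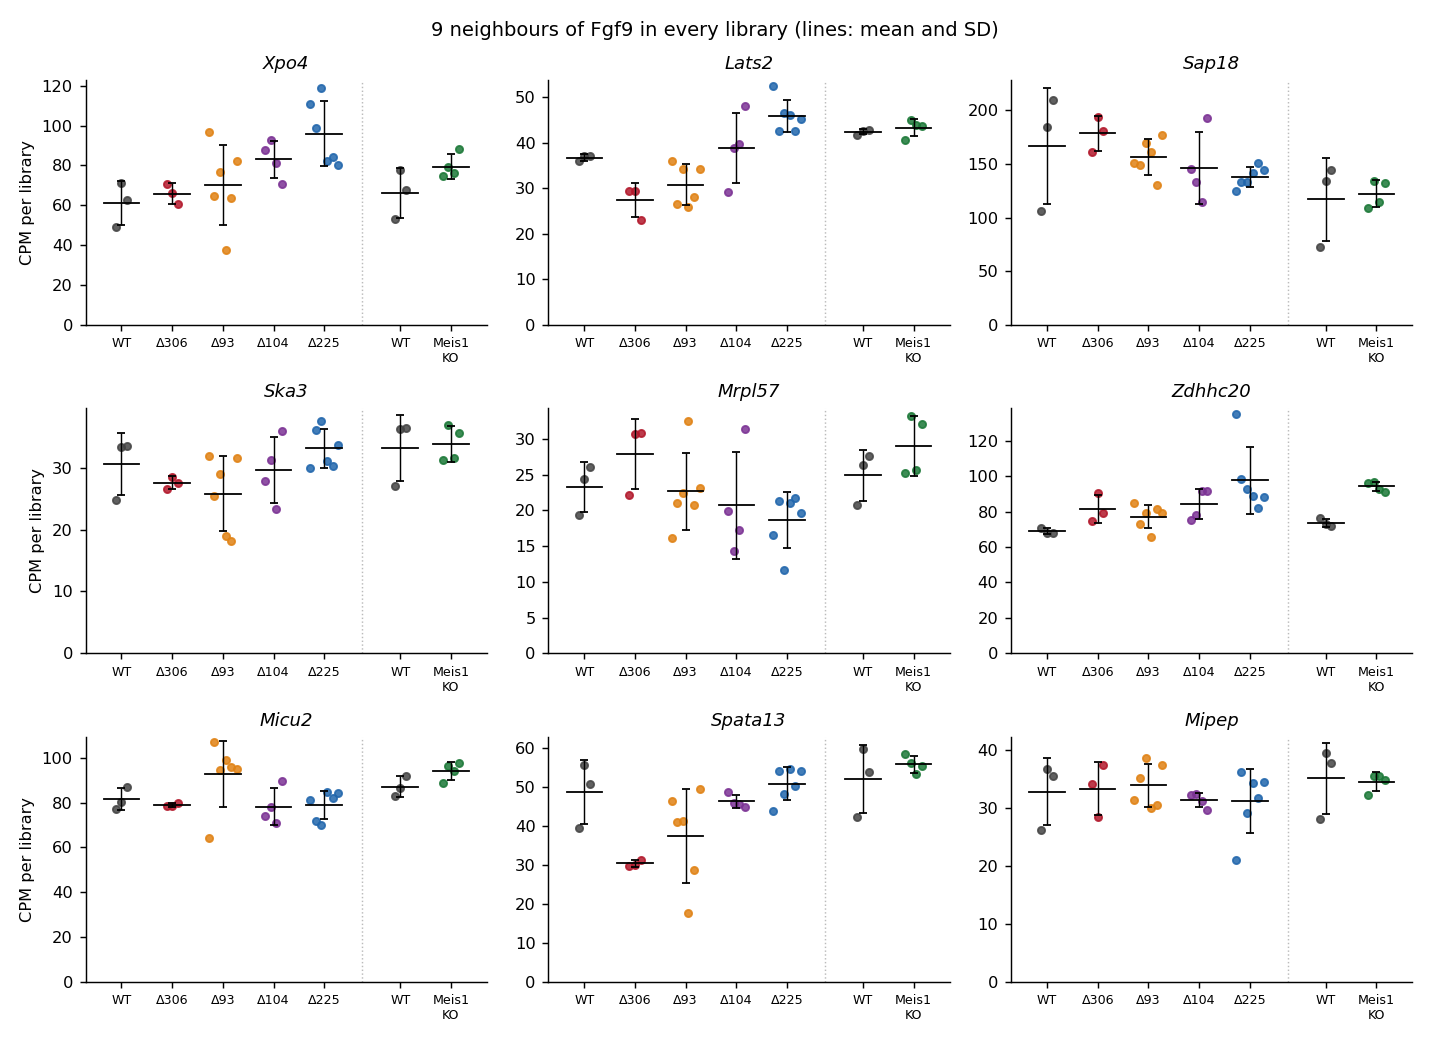
CPM of the other 9 neighbours in every library, with the mean and SD of each group (axes from 0). The 2 groups right of the dotted line come from the Meis1 table. Lats2 lies at 35.9 CPM or less in all Δ306 and Δ93 libraries and at 42.6 CPM or more in all Δ225 libraries.

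In the remaining comparisons 1 of 10 members was called in Δ225 against Δ104 (0.645% of all genes), which was Tnfrsf19, and 0 of 10 in Δ93 against Δ104 (0.0523%), Δ93 against Δ306 (0.0785%) and Δ104 against Δ306 (0.0654%). By edgeR at an unadjusted p under 0.05, 2, 0 and 2 members were marked there, beside 14.5%, 9% and 11.1% of all genes. The 10 lists of partner genes other than WNT targets had median log2 fold changes of -0.29 to 0.25 in Δ306, -0.42 to 0.28 in Δ93, -0.28 to 0.25 in Δ104 and -0.17 to 0.13 in Δ225. Per kb of exon, mean levels in WT were highest for Sap18 (30.7 CPM per kb) and Micu2 (26.4), then Ska3 (11.3), Zdhhc20 (9.57), Mrpl57 (7.88), Mipep (6.11), Xpo4 (5.70), Spata13 (5.33), Lats2 (5.28) and Tnfrsf19 (5.20). In Δ93 the level of Tnfrsf19 was 54.3 CPM per kb, above that of Micu2 (30.1) and Sap18 (28.8).

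The members were set beside all other genes by distance from the Fgf9 start, members included in the bins. Within 1 Mb, 19 genes were tested and 1 was called in Δ306 (5.26%), 4 in Δ93 (21.1%), 1 in Δ225 (5.26%) and 0 in Δ104. From 1 to 3 Mb, 73 genes were tested and 4.11% were called in Δ306, 11% in Δ93 and 0 in Δ225 and Δ104. On other chromosomes the shares were 6.54%, 14.3%, 0.196% and 0.0608% in Δ306, Δ93, Δ225 and Δ104. The 82 other tested genes within 3 Mb had 3 called higher in Δ306, 10 higher and 1 lower in Δ93, 1 lower in Δ225 and 0 in Δ104, with median log2 fold changes of 0.12, 0.16, 0.00 and 0.07.

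Gm33321, a lincRNA between Micu2 and Spata13 that starts 230.4 kb after the Fgf9 start (chr14:58300973-58363816, plus), was the gene called in Δ225. It had 0 counts in all 6 Δ225 libraries, 13 to 25 counts in WT, 21 to 36 in Δ306, 8 to 59 in Δ104 and 35 to 70 in Δ93. Against a floor of 3 counts over the Δ225 libraries, it was at least 27.0-fold higher in WT, 64.6-fold in Δ306, 65.8-fold in Δ104 and 86.6-fold in Δ93 (Δ225 against WT, edgeR adjusted p = 0.000588). It rose in Δ93 from 0.443 ± 0.188 to 1.42 ± 0.208 CPM (log2 1.68, adjusted p = 0.0189). The members on either side of it, Micu2 and Spata13, were uncalled in Δ225.

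Among the other genes within 3 Mb that were called in Δ306 or Δ93, the largest fold change in each was that of Rec8, 2452.5 kb before the Fgf9 start, which encodes a meiotic cohesin. It was at 2.86, 3.59 and 4.54 CPM in WT, 52.0, 70.2 and 112 CPM in Δ306 (log2 4.42, adjusted p = 0.00545) and 70.7 to 206 CPM in Δ93 (5.04, 0.000905). Cab39l rose in Δ306 by log2 0.77 (adjusted p = 0.0347). Gm41168, which overlaps Tnfrsf19 on the other strand, had 0 or 1 count in each WT library and 5 to 20 in the Δ93 libraries (adjusted p = 0.0138), and Gm29266 rose in Δ93 by log2 2.80 (0.0475). Whether reads of Gm41168 came from Tnfrsf19 was not tested. The 1 gene that fell in Δ93, Gjb2, which encodes a gap junction protein, was named after its values were seen (log2 -2.60, adjusted p = 0.0372).

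**Figure D5:**
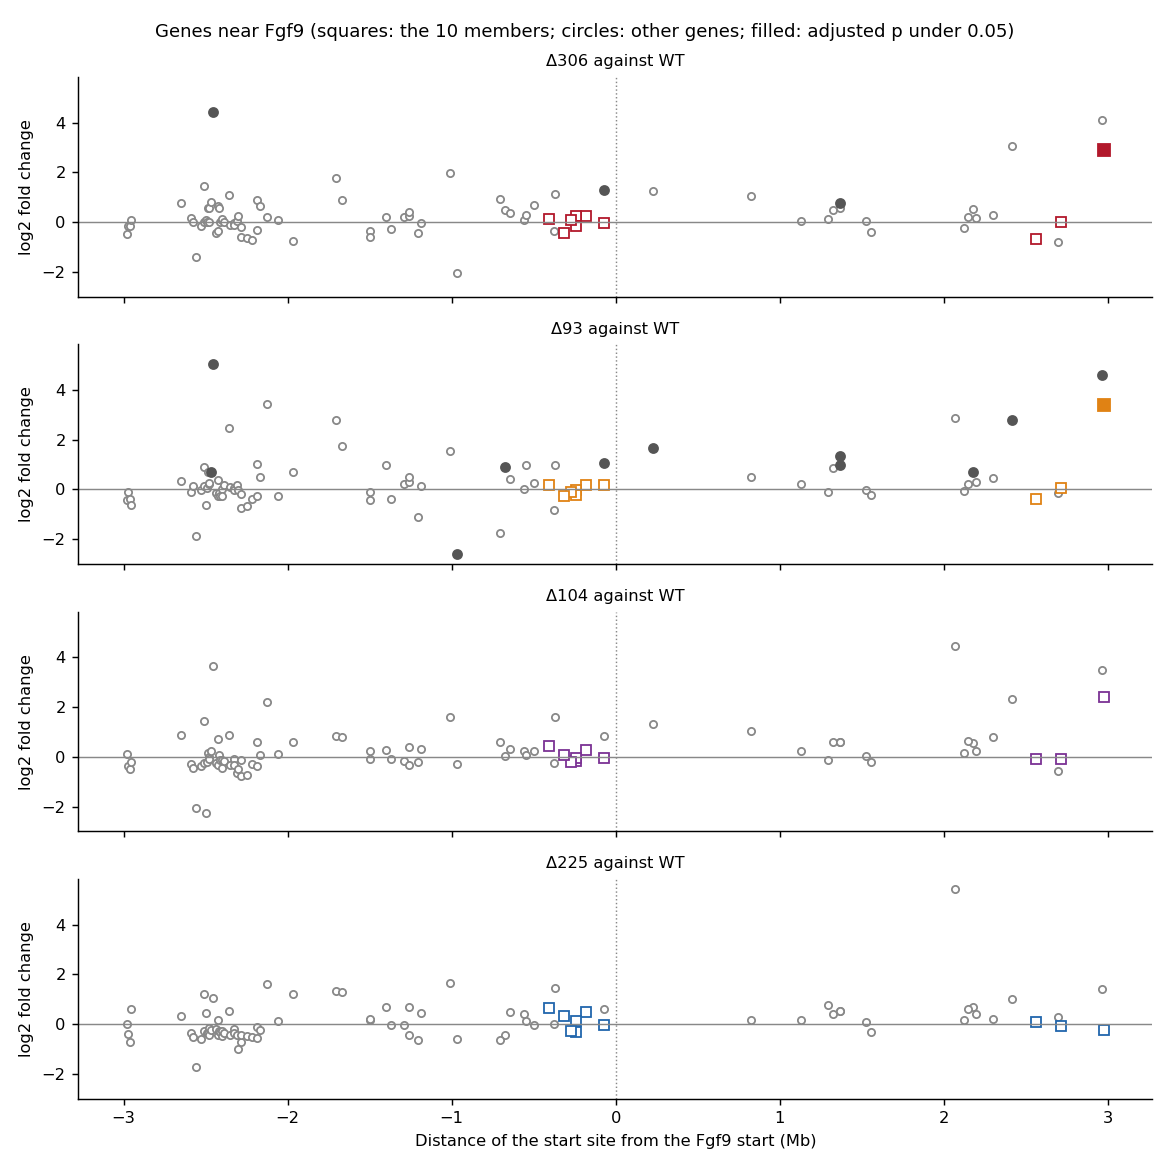
Log2 fold change against WT of all genes tested within 3 Mb of the Fgf9 start, by the distance of their start sites from it in Mb (squares: the 10 neighbours; circles: other genes; filled: adjusted p under 0.05). Gm33321 has no finite fold in Δ225 and is left out there. The 7 members within 1 Mb lie between -0.43 and 0.65 in all 4 panels, and Tnfrsf19 stands at the right edge.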

How the data were processed

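The deposited values are the authors' raw counts, whole numbers per gene, held in 3 tables. Per the submitters' processing notes, build mm10, STAR and DESeq2 were used for all groups, with STAR 2.7.10a, featureCounts and Subread named for WT and Δ306; annotation and strand setting are not given in the sources used here. The mutant columns of the first table, named only for Fgf9, were taken as Δ306 from the series' design. WT counts are identical in the first and the Meis1 table. The authors' deposited comparison served only to pair identifiers with symbols.

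Counts were fitted with edgeR 4.0.16 in R 4.3.3 (filterByExpr by group, TMM, quasi-likelihood F-test, Benjamini-Hochberg over all genes tested): 1 fit of the 22 WT and deletion libraries (22941 genes, residual degrees of freedom 17) for 10 comparisons, and 1 fit of the Meis1 table (7 libraries, 16791 genes, residual degrees of freedom 5). Fold changes are unshrunk, the SE is the log2 fold change divided by the square root of F, and 95% intervals use the t distribution on the total degrees of freedom. CPM are relative to TMM-scaled totals, and log2 CPM have a prior count of 2. Levels are not compared across tables. Intervals and floors cover the spread between libraries or counting error only, since reads carry no molecular identifiers. The fitting script was tested on simulated data.

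Columns map to groups by name. The text names the 10 members, Fgf9, Meis1, at most 3 called genes per list and comparison by size, and the 5 genes most and 3 least correlated with Tnfrsf19 (mean CPM at least 5); markers, 3110083C13Rik, Gm41168 and Gjb2 are named beside them, and some genes that met the rule are not reported here. The members and lists were chosen with earlier results of these data known. Alternatives were DESeq2 1.42.0, RLE normalization, no composition factor, no filter, the 2 groups alone, the first table alone, a prior count of 0.5, a replicate block, adjusted p under 0.01 and leaving out each library. Same-numbered libraries deviated together in all pairs (r over 0.1) only in Δ225 against Δ104 (4 pairs, r 0.106 to 0.37); the labels give no other ground for that pairing.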

Additional observations from a re-analysis of the deposited data

Results flagged for a closer look

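In 4 of 44 groups of 4 or more libraries tested, 1 library stood apart from the rest of its group by Dixon's test; chance alone gives about 1 group in 20. Micu2 in Δ93 replicate 1 was at 64.4 CPM, with the next library at 94.7. Zdhhc20 in Δ225 replicate 1 was at 135 CPM, with the next at 98.7. Fgf9 in Δ225 replicate 3 was at 16.5 CPM, with the next at 6.36, and in Δ93 replicate 4 at 4.75 CPM, with the next at 3.09.

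Of the 10 members, 4 differed between deletions by the test of the difference itself (edgeR adjusted p). Tnfrsf19 was lower in Δ225 than in Δ93 (log2 -3.62, adjusted p = 4.08e-05), Δ306 (-3.13, 0.000668) and Δ104 (-2.65, 0.0101). Lats2 was higher in Δ225 than in Δ93 (log2 0.57, adjusted p = 0.00201) and Δ306 (0.74, 0.00351). Spata13 was higher in Δ225 than in Δ306 (log2 0.74, adjusted p = 0.0286) and Zdhhc20 higher in Δ225 than in Δ93 (0.33, 0.0351).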

How the results depend on the processing

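Among 1720 values of single members under the alternatives, 1666 kept their side of the threshold, 34 lost a call, 20 gained one and 0 calls reversed; 61 uncalled values changed sign. The number of members called against WT in Δ306 was 1, and 2 in the 2 groups alone, 2 in the first table alone, 0 at an adjusted p under 0.01, and 0 to 1 with 1 library left out. In Δ225 it was 0, and 1 by DESeq2 and 2 with the replicate block. In Δ104 it was 0, and 1 by DESeq2 and 0 to 1 with 1 library left out. In Δ93 it was 1, and 1 to 2 with 1 library left out. The number of all genes called shifted under the same settings. In Δ306 against WT it was 1474, and 3429 in the 2 groups alone and 3101 in the first table alone. In Δ225 it was 48, and 781 by DESeq2 and 1638 with the replicate block. In Δ104 it was 14, and 591 by DESeq2. Between deletions, where such numbers over all genes are not given here, Δ225 against Δ93 gave 2 to 7 members with 1 library left out. Δ225 against Δ306 gave 5 with the replicate block. Δ225 against Δ104 gave 0 in the 2 groups alone, 0 with the replicate block, 0 at an adjusted p under 0.01 and 0 to 1 with 1 library left out. Δ93 against Δ104 and Δ104 against Δ306 each gave 0 to 1 with 1 library left out. Meis1 KO gave 0 with the replicate block, 0 at an adjusted p under 0.01 and 0 to 1 with 1 library left out. The cause of these shifts was not tested; leaving out a library or fitting 2 groups alone also leaves fewer samples.

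Outside Δ225 against Δ104, not all same-numbered pairs of a comparison had an r over 0.1 (lowest r of a pair -0.467 to 0.0502). Single pairs reached 0.539 in Δ225 against Δ93, 0.481 in Meis1 KO against WT and 0.375 in Δ306 against WT. The labels give no ground for pairing there either, and the block's calls on Zdhhc20, Xpo4 and Mrpl57 stand beside those members. Without the block and with all libraries in the fit, edgeR called Micu2, Ska3, Sap18, Mipep, Mrpl57 and Xpo4 in no comparison. The number of WT libraries, 3, limits the precision of every comparison with WT.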
